A study of Mus musculus with 44 samples.

Results

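The 8 receptors described here belong to the TNF receptor superfamily and were taken as a named list of its members other than RANK: Tnfrsf1a, Tnfrsf1b, Tnfrsf12a, Tnfrsf21, Tnfrsf10b, Ltbr, Fas and Cd40. All 8 had a row among the 21099 genes of the RANKL count table, and 7 of the 8, without Cd40, had a row among the 9257 genes of the RANKL+CSRM617 table. The 2 tables together hold 21126 genes. Of the 8, 7 had enough counts to be tested, and Cd40 did not.

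The cells came from small intestinal organoids, cultured epithelium that forms crypt-like buds, of a line grown from 1 female mouse heterozygous for a GFP-DTR insertion in Lgr5, a stem cell gene (Lgr5GFPDTR/+, line26, which the labels also call wild type; neither strain nor age is given there). All groups share this genotype and a pretreatment with 3 µM CHIR99021, a GSK3 inhibitor, and 1.5 mM valproic acid for 3 days, then 1 day in ENR medium. The RANKL+CSRM617 arm received 100 ng/mL RANKL with 40 µM CSRM617, an inhibitor of the transcription factor ONECUT2, and gave 2 plates of sorted single cells for each of days 0 to 6, 14 in all; whether its plates of day 0 had already received either agent is not in the labels. The RANKL arm received 100 ng/mL RANKL alone and gave 3 plates for each of days 0 to 9, 30 in all. Later days without RANKL were not analysed here, so RANKL and time in culture cannot be told apart in a change from day 0. The 2 arms are separate sets of plates, so that CSRM617 and other differences between the sets cannot be told apart either. Whether plates are separate cultures is not in the labels, and the p-values therefore reflect plate-to-plate spread that could be technical.

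In the RANKL+CSRM617 arm 1673 of 1903 wells had 1000 or more UMIs (molecular identifiers, each counting 1 RNA molecule) and were kept, and in the RANKL arm 6558 of 6636. Plates held 47976 to 835772 UMIs in the RANKL+CSRM617 arm and 155940 to 1640523 in the RANKL arm, with medians of 1800 to 3685 and 2968 to 6960 UMIs per cell. The shallowest RANKL day 0 plate, replicate 2, kept 26 cells, and 3 UMIs there already make 19.2 CPM (UMIs of a gene scaled to the total of the plate). All 5 epithelial markers were present, with a summed level of 2331 to 4226 CPM per plate in the RANKL+CSRM617 arm and 2128 to 3565 CPM in the RANKL arm. Of 6 immune markers, the RANKL table held 3, with a sum of at most 5.04 CPM in any plate and no row for Cd79a, Itgam or Tyrobp, and of 6 stromal markers it held 5, with at most 7.37 CPM. The RANKL+CSRM617 table had no row for any marker of either list.

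Receptors of this family bind trimeric ligands and recruit adaptor proteins to their tails. Those with a death domain (Tnfrsf1a, Fas, Tnfrsf10b, Tnfrsf21) can build complexes that activate caspases, whereas those that bind TRAF proteins directly (Tnfrsf1b, Ltbr, Tnfrsf12a, Cd40 and RANK itself) mainly activate NF-kappaB. RANK, encoded by Tnfrsf11a, is the receptor through which RANKL induces M cells, which carry antigens across the epithelium.

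The promoters of the receptors with the largest differences between periods, Fas and Tnfrsf1b, are shown as 250 bases before to 50 after the start of the gene, from RefSeq on GRCm38.p6, 5′ to 3′ on the strand of the gene. Fas lies on chr19:34290409-34290708, plus strand, and Tnfrsf1b on chr4:145246821-145247120, minus strand. Capitals mark the match to the AP-1 motif TGANTCA, which reads the same on both strands, and lower case marks all other bases.
Fas: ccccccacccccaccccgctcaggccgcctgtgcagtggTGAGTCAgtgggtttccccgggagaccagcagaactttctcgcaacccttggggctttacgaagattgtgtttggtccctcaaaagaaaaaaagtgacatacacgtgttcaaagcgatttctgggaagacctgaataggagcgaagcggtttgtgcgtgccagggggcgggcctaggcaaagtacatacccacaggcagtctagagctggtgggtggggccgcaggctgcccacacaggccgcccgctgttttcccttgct
Tnfrsf1b: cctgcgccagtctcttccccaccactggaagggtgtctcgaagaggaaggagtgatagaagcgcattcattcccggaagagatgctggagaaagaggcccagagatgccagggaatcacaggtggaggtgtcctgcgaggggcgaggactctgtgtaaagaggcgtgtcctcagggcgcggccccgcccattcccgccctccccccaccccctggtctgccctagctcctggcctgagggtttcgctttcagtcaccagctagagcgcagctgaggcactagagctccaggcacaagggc
Promoter entries were found for 6 of the 8 receptors (not for Tnfrsf10b and Cd40) and for Tnfrsf11a. The motifs searched, each on both strands, were AP-1, the kappaB motif and the p53 binding motif of a single decamer. Among these entries 1 match was found, the AP-1 motif of Fas, with its first base at position -211 from the start. Of 32851 mouse promoters of the same length, 7.81% hold the AP-1 motif, 4.51% the kappaB motif and 8.36% the p53 decamer. A match is a description of the sequence, and its absence says only that these letters are not in this window.

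With RANKL, the receptors followed separate courses. In each plate the counts of its cells were summed, scaled to CPM with TMM library sizes, and tested with edgeR's quasi-likelihood test at a Benjamini-Hochberg adjusted p of 0.05. Over days 1–3, 4 of the 7 tested receptors differed from day 0, against 25.1% of all 10000 genes tested: Tnfrsf1b, Tnfrsf10b and Tnfrsf21 were higher (11.6% of all genes were) and Tnfrsf12a was lower (13.6%). Over days 4–9, 5 of 7 differed from day 0, against 41.5% of all genes: Tnfrsf1b, Tnfrsf10b and Tnfrsf21 were higher (20.1%), and Fas and Ltbr were lower (21.4%). Between days 4–9 and days 1–3, 4 of 7 differed, against 49.4% of all genes, and Fas, Tnfrsf1b, Tnfrsf1a and Tnfrsf10b were all lower in the later period, as were 25.1% of all genes. The median log2 fold change of the 7 was 0.68 over days 1–3 and -0.38 over days 4–9 against day 0 and -0.39 between the periods, beside -0.01, 0.03 and 0.02 over all genes. Across all 10 days, 7 of 7 receptors differed between days, where 58.6% of all genes did. Each day was also compared with day 0, and 3, 2, 5, 3, 4, 5, 3, 4 and 3 of the 7 receptors passed on days 1 to 9, where 23.8%, 21.5%, 20.4%, 21.5%, 34.4%, 38.3%, 33%, 35.2% and 36.4% of all genes did. In a sum over a plate, fewer cells of a type and less RNA per cell cannot be told apart.

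**Figure D1:**
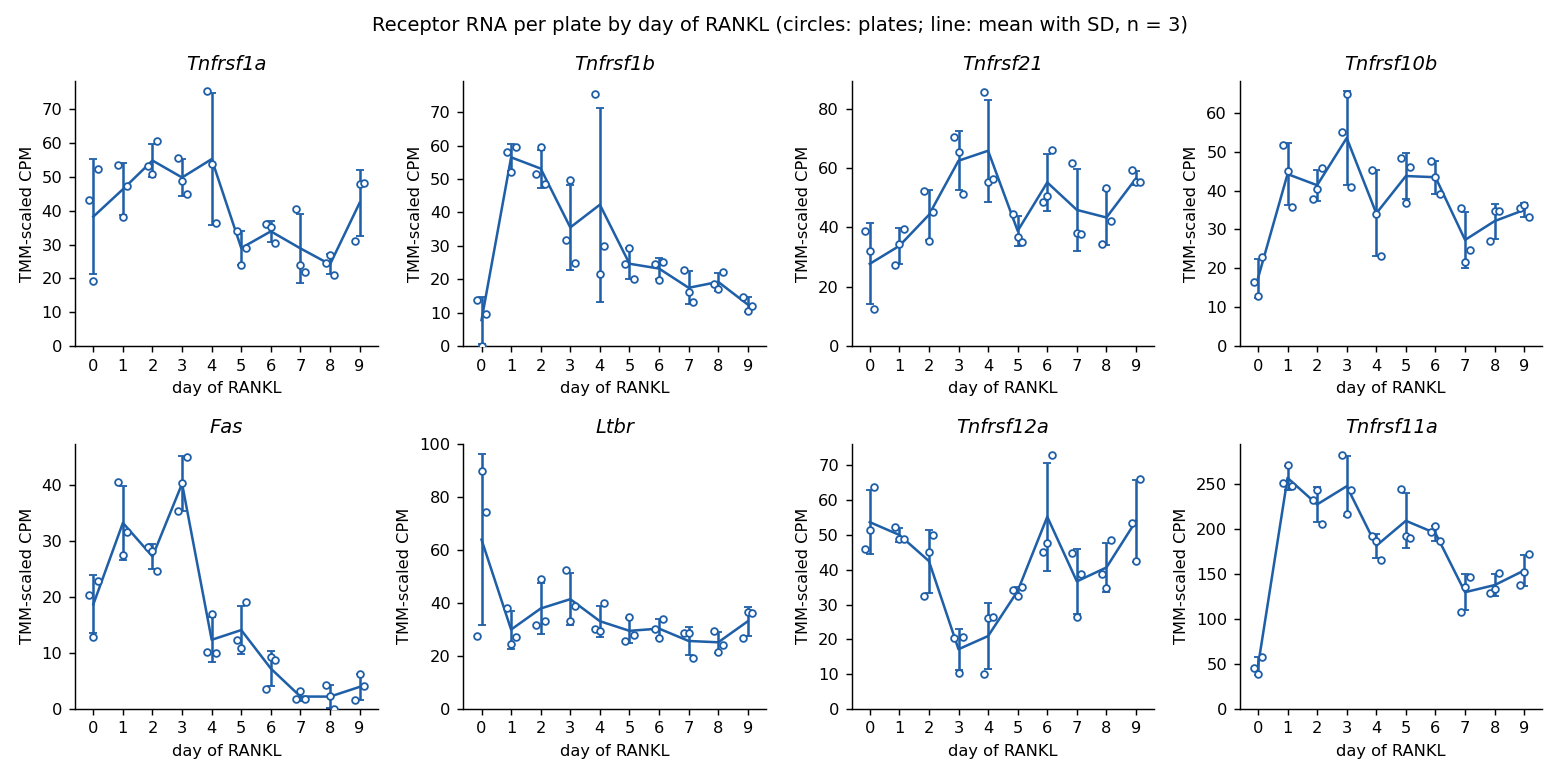
Level of each tested receptor, and of Tnfrsf11a, by day of RANKL, with the day on the x axis and TMM-scaled CPM on the y axis; circles are plates, and lines join day means with SD (n = 3). Fas averaged 18.6 CPM on day 0, 40.2 CPM on day 3 and 2.18 CPM on day 8, and Tnfrsf12a was lowest on day 3, at 17.1 CPM.

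Tnfrsf1b (TNFR2, the TNF receptor without a death domain; chr4:145213463-145246870, minus strand, GRCm38) had the largest log2 fold change of the 7 over days 1–3. It had 13.8, 0 and 9.52 CPM in the 3 day 0 plates, 24.9 to 59.5 CPM over days 1–3 (median 51.4, n = 9) and 10.4 to 75.6 CPM over days 4–9 (median 20.8, n = 18). Every plate of days 1–3 lay above every day 0 plate, whereas days 4–9 overlapped with both. The log2 fold change over days 1–3 was 2.13 (SE 0.31, adjusted p = 1.69e-06), and over days 4–9 it was 0.95 (SE 0.33, adjusted p = 0.0202). The later call was lost without day 0 replicate 3 (0.82, adjusted p = 0.148). From days 1–3 to days 4–9 the level fell by 1.18 on the log2 scale (SE 0.14, adjusted p = 8.71e-09). By day the order was led by day 1 (56.5 ± 3.99 CPM, SD, n = 3) and day 2 (53.1 ± 5.67 CPM), which differed by less than their spread, and days 1 to 6 passed the test against day 0. The day 5 and day 6 calls were lost without day 0 replicate 3 (adjusted p = 0.0936 and 0.110), and also without day 5 replicate 2 (0.0608) and day 6 replicate 3 (0.0564).

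Tnfrsf1a (TNFR1, the widely expressed TNF receptor with a death domain; chr6:125349362-125362484, plus strand) varied less. It had 43.2, 19.2 and 52.3 CPM in the day 0 plates, 38.2 to 60.5 CPM over days 1–3 (median 51.0) and 21.1 to 75.6 CPM over days 4–9 (median 32.6). These ranges overlapped in every pair of periods. The log2 fold change from day 0 was 0.18 over days 1–3 (SE 0.20, adjusted p = 0.581) and -0.38 over days 4–9 (SE 0.20, adjusted p = 0.119). Against days 1–3, days 4–9 fell by 0.56 on the log2 scale (SE 0.11, adjusted p = 8.96e-05). That call was lost with cells thinned to 1000 UMIs (-0.44, adjusted p = 0.108). The highest values of both TNF receptors, 75.6 CPM each, came from replicate 1 of day 4, a plate of 32 cells in which 3 UMIs make 16.8 CPM.

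Fas (the receptor of Fas ligand, a death receptor; chr19:34290666-34327772, plus strand) had 20.2, 12.8 and 22.8 CPM in the day 0 plates, 24.6 to 45.0 CPM over days 1–3 (median 31.6) and 0 to 19 CPM over days 4–9 (median 5.23). All 9 plates of days 1–3 were above the 3 plates of day 0 and above the 18 plates of days 4–9. The rise over days 1–3 as a whole did not pass, with a log2 fold change of 0.68 (SE 0.27, adjusted p = 0.0595). Of the single days 1 to 3 only day 3 passed (0.96, SE 0.30, adjusted p = 0.0199). That call was lost without day 0 replicate 1 (adjusted p = 0.0639), day 0 replicate 3 (0.0505) or day 3 replicate 3 (0.0719), and with cells thinned to 1000 UMIs (0.334). Leaving out 1 plate at a time brought the contrast of days 1–3 past the threshold in 17 of 30 fits. In the other 13 it did not pass, and the adjusted p ran from 0.0250 to 0.156 over the 30. From days 1–3 to days 4–9 Fas fell by 2.54 on the log2 scale (SE 0.17, adjusted p = 2.85e-14), and the log2 fold change of days 4–9 against day 0 was -1.87 (SE 0.30, adjusted p = 5.33e-06). Ordered by level, the days ran 3, 1, 2, 0, 5, 4, 6, 9, 7 and 8. Neighbours in that order were apart by more than the larger of their SDs between days 3 and 1, 2 and 0, 4 and 6, and 6 and 9, and the other 5 neighbouring pairs were not.

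Tnfrsf10b (the TRAIL receptor of the mouse, a death receptor; chr14:69767472-69784411, plus strand) had 16.6, 12.8 and 22.8 CPM in the day 0 plates, 35.9 to 64.7 CPM over days 1–3 (median 45.1) and 21.7 to 48.3 CPM over days 4–9 (median 35.6). Days 1–3 did not overlap with day 0. The log2 fold change was 1.27 over days 1–3 (SE 0.23, adjusted p = 3.58e-05) and 0.88 over days 4–9 (SE 0.22, adjusted p = 0.00167), and that of the later against the earlier period was -0.39 (SE 0.11, adjusted p = 0.0027). By day, each of days 1 to 9 other than days 4 and 7 passed the test against day 0, and day 8 was lost without day 0 replicate 1 (adjusted p = 0.102) or without the filter on low counts (0.0897). With cells thinned to 1000 UMIs none of its calls held: the changes of the periods were then 1.04 (adjusted p = 0.123), 0.89 (0.141) and -0.15 (0.610).

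Tnfrsf21 (death receptor 6, which also carries a death domain; chr17:43016555-43089189, plus strand) had 38.6, 32.1 and 12.4 CPM in the day 0 plates, 27.4 to 70.6 CPM over days 1–3 (median 45.0) and 34.6 to 85.6 CPM over days 4–9 (median 52.0). The periods overlapped, and the lowest plate of all was replicate 3 of day 0. Its log2 fold change was 0.78 over days 1–3 (SE 0.26, adjusted p = 0.0229) and 0.92 over days 4–9 (SE 0.25, adjusted p = 0.00318). Both calls rested on that plate: without it the changes were 0.27 (adjusted p = 0.553) and 0.41 (adjusted p = 0.250).

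Tnfrsf12a (Fn14, the receptor of the ligand TWEAK, known to be induced in injured tissue; chr17:23675445-23677468, minus strand) dipped and came back. Day 0 plates had 46.0, 51.3 and 63.8 CPM, day 3 plates had 20.4, 10.3 and 20.8 CPM, and day 6 averaged 55.2 ± 15.5 CPM (SD, n = 3). Days 7 and 8 were lower again on average, at 36.7 ± 9.44 and 40.7 ± 7.06 CPM, and day 9 averaged 54.1 ± 11.8 CPM. Against day 0 the log2 fold change was -1.64 on day 3 (SE 0.27, adjusted p = 1.73e-05), -1.23 on day 4 (SE 0.34, adjusted p = 0.00794) and -0.68 on day 5 (SE 0.26, adjusted p = 0.0408), and the other days did not pass. The day 3 call held whichever plate was left out. That of day 4 was lost without day 0 replicate 3 (adjusted p = 0.0671) or day 4 replicate 1 (0.0516), and that of day 5 in 22 of 30 such fits and with DESeq2 (0.0545). With cells thinned to 1000 UMIs, neither day 4 nor day 5 passed (adjusted p = 0.140 and 0.824). Over days 1–3 as a whole the change was -0.70 (SE 0.21, adjusted p = 0.0115), a call lost without day 0 replicate 3 (-0.49, adjusted p = 0.241). Over days 4–9 it was -0.48 (SE 0.20, adjusted p = 0.0528).

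Ltbr (the lymphotoxin beta receptor, which acts in lymphoid organ development; chr6:125306571-125313885, minus strand) had 27.6, 89.8 and 74.2 CPM in the day 0 plates, 24.5 to 52.2 CPM over days 1–3 (median 33.2) and 19.4 to 39.8 CPM over days 4–9 (median 29). Day 0 spread widely, and its replicate 1 lay within the range of the later days. The log2 fold change was -0.61 over days 1–3 (SE 0.23, adjusted p = 0.0512) and -0.92 over days 4–9 (SE 0.23, adjusted p = 0.00123). Without day 0 replicate 3 the later change was -0.45 (adjusted p = 0.292), and without day 0 replicate 1 the earlier one was -1.04 (adjusted p = 0.00107).

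Cd40 (the receptor of CD40 ligand, best known on B cells and other antigen-presenting cells; chr2:165055627-165072948, plus strand) gave 4 UMIs in 4 of the 6558 RANKL cells, 1 on day 6, 1 on day 8 and 2 on day 9. Its level over the whole table was 0.124 CPM, where 3 UMIs make 0.0931 CPM. Of the 4 cells, 3 belonged to an enteroendocrine-like cluster. In contrast, Tnfrsf11a, which encodes RANK (chr1:105780718-105847981, plus strand), had 5992 UMIs, against 579 for Fas and 1470 for Tnfrsf21, the lowest and the highest of the 7 tested receptors. Its log2 fold change from day 0 was 2.28 over days 1–3 (SE 0.15, adjusted p = 3.25e-14) and 1.72 over days 4–9 (SE 0.15, adjusted p = 9.43e-12).

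**Figure D2:**
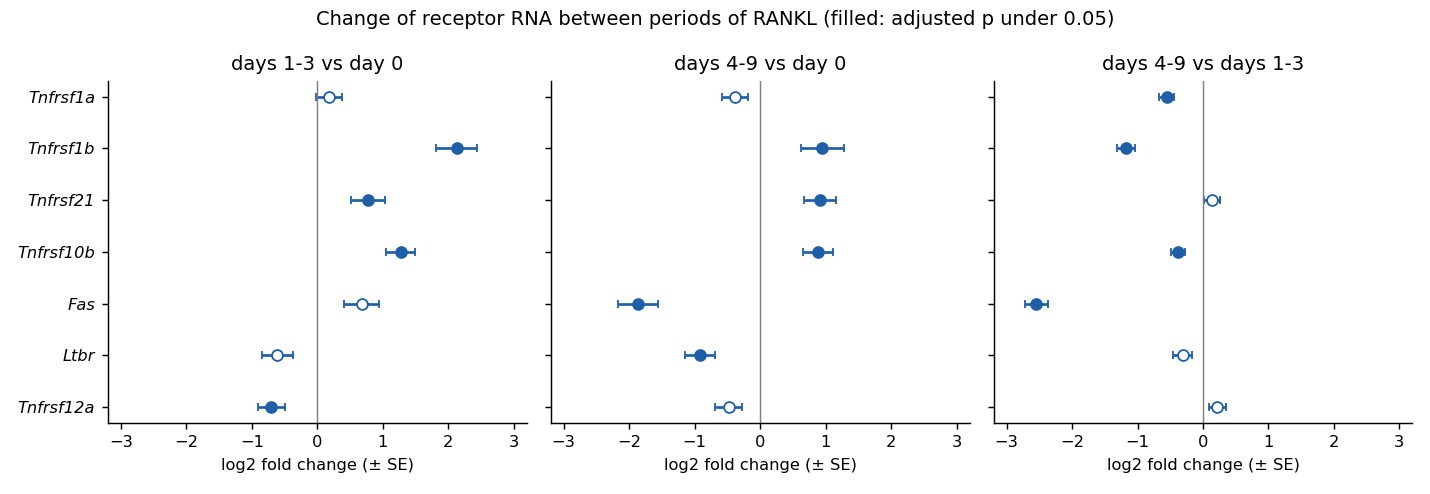
Log2 fold change (x axis) of each tested receptor (y axis) between periods of RANKL, with bars of 1 SE; filled circles passed an adjusted p of 0.05 in edgeR's quasi-likelihood test. Tnfrsf1b at 2.13 over days 1–3 and Fas at -2.54 between days 4–9 and days 1–3 lie farthest from 0.

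Levels also differed between kinds of cells. Clusters of cells were built in each table without these receptors and Tnfrsf11a among the variable genes and were named from marker lists. Levels by cluster are CPM of the summed counts and are descriptions without a test. Fas was high in enterocyte-like cells, the absorptive cells. Over days 1–3 of RANKL it had 120 CPM in cluster 11, enterocyte-like and led by Reg1, Reg3b and Papss2 (164 cells, 125 UMIs), with 65.8 to 189 CPM in the 6 plates that held at least 10 of its cells. In cluster 6, also enterocyte-like and led by Clec2h, Adgrd1 and Guca2b (294 cells), it had 68.4 CPM, with 32.4 to 82.0 CPM in 6 plates. The M cell-like cluster 8 (278 cells) had 34.5 CPM, the mitotic-like cluster 5 (449 cells) 13.2 CPM and cluster 3, unnamed and led by Id3 and Id1 (695 cells), 13.9 CPM.

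Within the enterocyte-like class, Fas had 32.6 CPM on day 0 (245 cells) and then 128, 84.6 and 79.3 CPM on days 1, 2 and 3 (75, 106 and 316 cells). On days 4 to 9 it had 48.5, 79.7, 38.0, 14.7, 10.9 and 23.3 CPM, from 30, 58, 13, 20, 32 and 26 cells, and apart from day 5 (35 UMIs) each of these rests on 10 UMIs or fewer. Cells of neither the enterocyte-like nor the M cell-like class had 4.39 CPM on day 0, 17.1, 9.93 and 12.2 CPM on days 1, 2 and 3, and 1.74 to 6.66 CPM on days 4 to 9. The class drew on different clusters over time, cluster 10 (led by Fabp1 and Gstm3) for 241 of its 245 day 0 cells and clusters 6 and 11 for 458 of its 497 cells of days 1–3. It held 179 cells over days 4–9. No Fas UMI was seen in the 228 goblet and Paneth-like cells of days 4–9, where 3 UMIs would make 4.10 CPM, nor in the 167 enteroendocrine-like cells, where they would make 6.64 CPM.

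Tnfrsf1b differed from Fas in being low in the enterocyte-like clusters 11 and 6. Over days 1–3 it had 71.9 CPM in the M cell-like cluster, 54.8 CPM in cluster 3 and 53 CPM in the mitotic-like cluster, against 12.4 and 23.2 CPM in the enterocyte-like clusters 11 and 6. On day 0 it was likewise low in enterocyte-like cluster 10, with 3.1 CPM, and had 16.8 CPM in cluster 15, unnamed and led by Gm1123 and Fos. Tnfrsf1a, the other TNF receptor, had 92.8 CPM in cluster 11 and 71.9 CPM in the M cell-like cluster, against 31.6 CPM in mitotic-like cells.

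Tnfrsf12a was highest in 2 clusters that stayed unnamed and share Anxa3, Clu and Ly6a among their leading genes. It had 144 CPM in cluster 17 over days 1–3 (81 cells, 94.6 to 228 CPM in 4 plates) and 133 CPM in cluster 13 over days 4–9 (213 cells, 70.9 to 312 CPM in 8 plates), against 13.4 and 17.4 CPM in the enterocyte-like clusters of days 1–3. Its low level on day 3 was seen both in enterocyte-like cells, at 15.2 CPM, and in cells of neither class, at 17 CPM, where day 0 had 49.3 and 52.6 CPM. Enterocyte-like cells were already at 16.9 CPM on day 2. M cell-like cells had 23.6, 38.4 and 37.8 CPM on days 1, 2 and 3, with 36 cells on day 3, and were not lowest on that day. Tnfrsf10b ranged from 21.4 CPM in goblet and Paneth-like cells to 52.9 CPM in enterocyte-like cluster 6 over days 1–3. Tnfrsf21 reached 67.2 CPM in cluster 17 over days 1–3 and 62.1 CPM in stem-like cells over days 4–9.

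**Figure D3:**
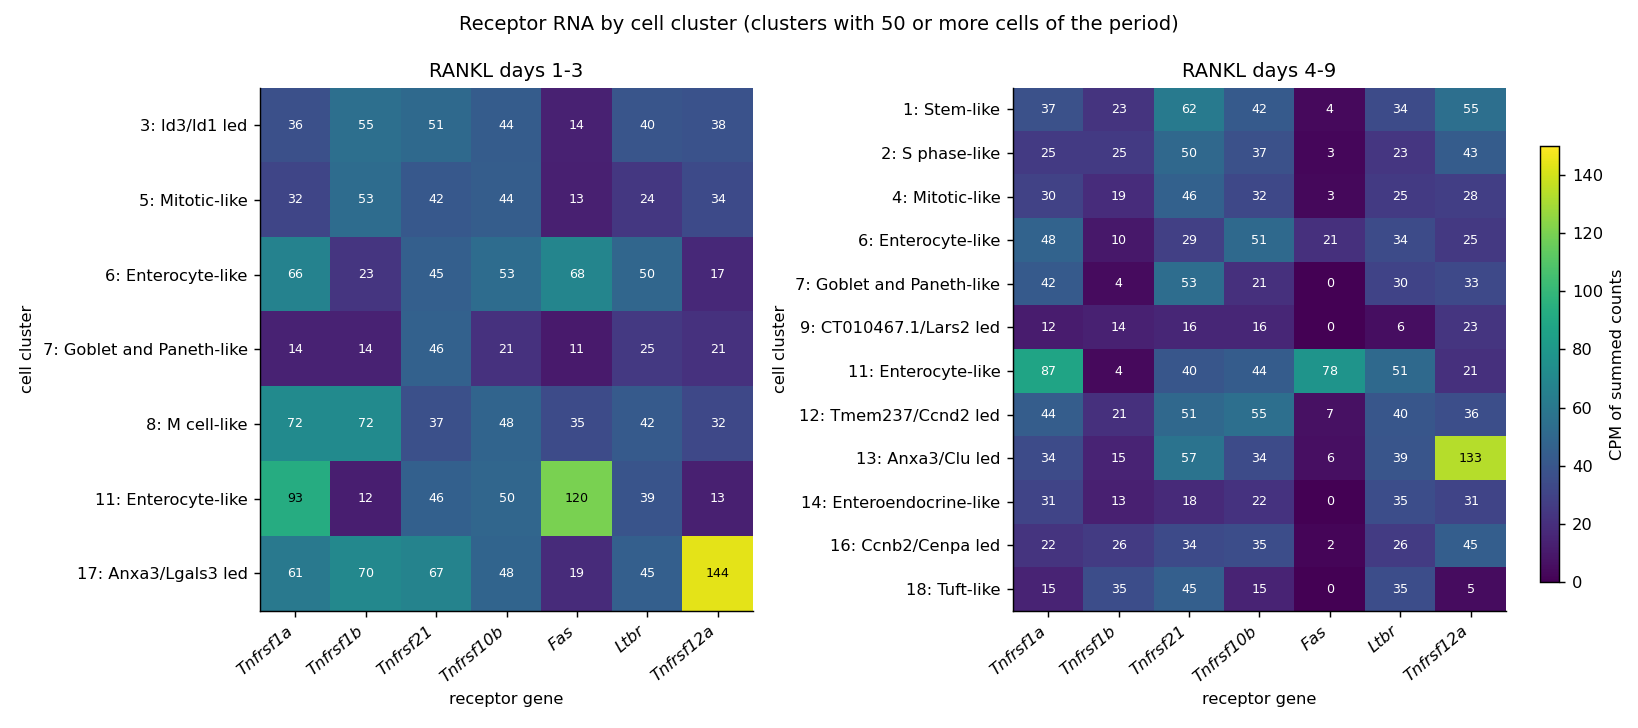
CPM of summed counts (colour and printed value) of the 7 receptors (x axis) in each cell cluster with 50 or more cells (y axis), for days 1–3 and days 4–9 of RANKL. Fas stands out in enterocyte-like cluster 11, at 120 and 77.8 CPM, and Tnfrsf12a in clusters 17 and 13, at 144 and 133 CPM.

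The genes whose log2 CPM followed a receptor most closely over the 30 RANKL plates, among 5448 genes, are a description, since plates of 1 day share their time in culture and much of their cell composition. For Fas they were Aoc1, Cdkn2b and Tm4sf5 (Pearson r of 0.92, 0.92 and 0.91). For Tnfrsf1b they were Dnajc10, Megf9 and Mtmr4 (0.92, 0.89 and 0.89), and for Tnfrsf10b Cd55, Cxcl16 and Mlph (0.89, 0.86 and 0.86). For Tnfrsf12a they were Ddah1, Jun and Nfkbiz (0.77, 0.75 and 0.74). For Tnfrsf1a, Ltbr and Tnfrsf21 the closest were Mapk3 (0.80), Pcyt2 (0.78) and Gm20663 (0.74).

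RNA of several ligands of these receptors was present in the organoid cells. Of 18 ligand genes of the TNF superfamily, 6 could be tested with RANKL. All 6 differed from day 0 over days 1–3, with Ltb, Tnfsf15, Tnf, Tnfsf10 and Tnfsf9 higher and Tnfsf13b lower; Tnfsf9 and Tnfsf13b, named after their values were seen, changed by 1.44 and -1.81. The list had a median log2 fold change of 2.68 (1.54 with Ltb set to its lower bound), where the median of all genes was -0.01 and 11.6% and 13.6% of all genes were higher and lower. Tnf, the ligand of Tnfrsf1a and Tnfrsf1b, had 19 to 54.9 CPM over days 1–3 (median 39.4), against 0, 2.76 and 2.86 CPM on day 0, a log2 fold change of 3.74 (SE 0.37, adjusted p = 6.78e-10). Before TMM scaling, 3 UMIs make 2.72, 19.2 and 2.50 CPM in day 0 replicates 1, 2 and 3. The size of the Tnf change therefore rests on few day 0 counts. Tnfsf10, which encodes TRAIL, the ligand of Tnfrsf10b, had 51.0 to 86.1 CPM over days 1–3, against 8.28, 26.7 and 70.6 CPM on day 0, and rose by 1.63 (SE 0.27, adjusted p = 1.33e-05). Ltb, a subunit of the ligand of Ltbr, had no UMI on day 0 and 42 over days 1–3, at least 2.69-fold higher against 3 UMIs over the day 0 plates. Over days 4–9 it had 258 UMIs, at least 12.5-fold higher. Tnfsf15, the ligand of another receptor, had 373 UMIs over days 1–3 and 3 on day 0, a ratio of CPM of 23.9 (95% counting interval 8.11 to 116). Lta gave 12 UMIs in all, and no row was present for Fasl, Tnfsf12, Cd40lg or Tnfsf14, the ligands of Fas, Tnfrsf12a, Cd40 and Ltbr.

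Among 20 other receptor genes of the family, 3 could be tested. Of these, 2 were higher over days 1–3, Tnfrsf11a and Tnfrsf19, where 11.6% of all genes were higher. Tnfrsf19, a stem cell marker of the intestine, had 5.41 to 19.95 CPM (median 11.8), against 2.86, 5.52 and 6.42 CPM on day 0 (log2 fold change 1.43, SE 0.39, adjusted p = 0.00532). It went on to 45.9 to 144 CPM over days 4–9 (4.20, SE 0.30, adjusted p = 7.76e-14). Of the adaptors and proximal signalling genes, 9 of 20 tested were higher over days 1–3 and 1 was lower (median 0.17). The shares over all genes were 11.6% and 13.6%. Tnfaip3, the ubiquitin-editing inhibitor A20, had 178 to 341 CPM over days 1–3, against 6.42, 10.1 and 16.2 CPM on day 0 (4.30, SE 0.25, adjusted p = 7.59e-16). Map3k14, the NF-kappaB inducing kinase, rose by 2.17 (SE 0.57, adjusted p = 0.00413) and Tnip1, a partner of A20, by 2.01 (SE 0.20, adjusted p = 8.79e-10). Over days 4–9, where 20.1% and 21.4% of all genes were higher and lower than on day 0, 8 adaptor genes were higher and 2 lower, led by Tnfaip3 at 3.01, Traf2 at 1.56 and Birc2 at 1.28.

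Of 14 tested death pathway genes, 2 passed over days 1–3, both lower than on day 0, where 13.6% of all genes were lower and 11.6% higher. Mlkl, the executor of necroptosis, fell by 1.22 (SE 0.31, adjusted p = 0.00282). Over days 4–9, 1 was higher and 5 were lower, beside 20.1% and 21.4% of all genes (median -0.25, all genes 0.03), with Mlkl at -2.10 and Cycs, cytochrome c, at -1.17. Of 16 tested p53 targets, a list without the receptors, 4 passed over days 1–3, all higher, with Zmat3 at 1.45 (SE 0.16), Plk2 at 1.18 (SE 0.25) and Gtse1 at 1.03 (SE 0.35). Over days 4–9, 6 were higher and 2 lower, with Cdkn1a, the cell cycle inhibitor p21, at -1.61, Phlda3 at 1.37 and Plk2 at 1.28. Of the 4 tested genes of receptor shedding, Rhbdf1 (0.62) and Adam10 (0.42), a protease that cleaves membrane proteins, were higher over days 1–3, and Rhbdf1 alone (0.80) over days 4–9.

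With RANKL+CSRM617, 1 of 7 receptors changed from day 0 over days 1–3, where 11.9% of 6499 genes tested did and 6% were higher. This was Fas, with 20.1 to 72.9 CPM over days 1–3 (median 39.8, n = 6), against 9.34 and 7.82 CPM on day 0 (6 and 3 UMIs). None of these 6 plates overlapped with day 0, and the highest was a day 3 plate. Fas rose by 2.11 on the log2 scale (SE 0.45, adjusted p = 0.00267), and without day 0 replicate 1 it was 2.26 (adjusted p = 0.0678). Over days 4–6 Fas had 8.11 to 19.4 CPM (median 17.2), and its change from day 0 was 0.72 (SE 0.63, adjusted p = 0.548). Over days 4–6, 0 of 7 receptors passed edgeR's test, where 10.6% of genes did; none had an unadjusted p under 0.05 and DESeq2 called 0. Across all days, 1 of 7 (Fas, adjusted p = 0.0034) differed, where 20.2% of genes did. By cluster over days 1–3, Fas had 89.0 CPM in cluster 4, unnamed and led by Reg3b, Ccl9 and Apoa1, and 78.5 CPM in enterocyte-like cluster 8, against 13.2 CPM in mitotic-like cells.

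The arms were compared over the 8766 tested genes present in both tables and on a CPM scale of those genes. On day 0, 1 of 7 receptors differed between the arms, against 9.82% of genes (7.07% were lower). This was Tnfrsf12a, with 21.3 and 19.2 CPM in RANKL+CSRM617 plates and 44.4, 52.5 and 60.5 CPM in RANKL plates. Its log2 fold change was -1.35 (SE 0.40, adjusted p = 0.0225), and the call was lost without RANKL+CSRM617 replicate 1 or 2 (adjusted p = 0.154 and 0.114) or RANKL replicate 3 (0.106). Over days 1–3, 1 of 7 differed, against 28.6% of genes. Tnfrsf21 had 18.8 to 42.9 CPM in the RANKL+CSRM617 arm (median 28.6, n = 6) and 26.3 to 69.2 CPM in the RANKL arm (median 43.2, n = 9), a log2 fold change of -0.61 (SE 0.22, adjusted p = 0.0312) with overlapping plates. Over days 4–6, 1 of 7 differed, against 22.4% of genes. Tnfrsf21 had 0 to 38.4 CPM with RANKL+CSRM617 (median 22.2, 23 UMIs in 6 plates) and 33.8 to 84.0 CPM with RANKL (median 48.7, 366 UMIs in 9 plates), a difference of -1.10 (SE 0.36, adjusted p = 0.0255), where the median of all genes was -0.12.

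These Tnfrsf21 calls were lost when any of 6 single plates was left out for days 1–3 (adjusted p up to 0.145; replicate 1 of days 1, 2 and 3 of RANKL+CSRM617, and replicate 3 of day 1 and replicate 1 of days 2 and 3 of RANKL). For days 4–6 they were lost without replicate 2 of day 4, replicate 1 of day 5 or replicate 1 of day 6 of RANKL+CSRM617 (adjusted p up to 0.0660). Fas over days 1–3 had 21.1 to 80.4 CPM in the RANKL+CSRM617 arm (median 42.9) and 23.6 to 44.2 CPM in the RANKL arm (median 30.3), a difference of 0.38 (SE 0.17, adjusted p = 0.0848).

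Whether the change from day 0 itself differed between arms was tested as an interaction. By edgeR, 0 of 7 receptors passed over days 1–3 and 0 over days 4–6, where 4.1% and 6.34% of genes did, and DESeq2 called 0 in both. At an unadjusted p under 0.05 there were 2 in each period, Fas and Tnfrsf12a. The interaction of Fas was 1.48 (SE 0.48, adjusted p = 0.0736) over days 1–3 and 1.56 (SE 0.65, adjusted p = 0.189) over days 4–6. That of Tnfrsf12a was 1.09 (SE 0.46, adjusted p = 0.202) and 1.33 (SE 0.58, adjusted p = 0.176). These rest on few counts in the RANKL+CSRM617 arm. Fas had 9 UMIs there on day 0 and 14 over days 4–6, and Tnfrsf12a had 20 and 36.

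**Figure D4:**
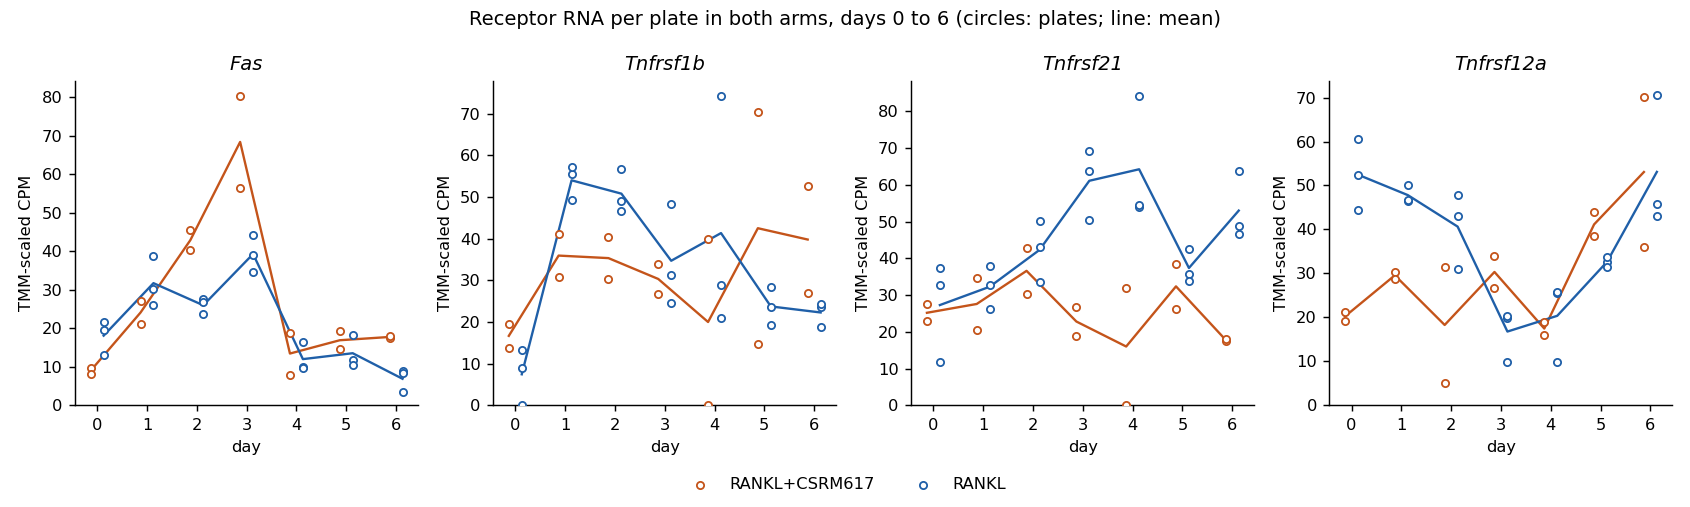
TMM-scaled CPM (y axis) of 4 receptors per plate by day (x axis), over the genes of both tables; circles are plates of RANKL+CSRM617 and of RANKL, and lines join day means. The RANKL+CSRM617 plates of Tnfrsf21 lie between 0 and 38.4 CPM on days 4–6, and the RANKL plates between 33.8 and 84.0 CPM.

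The arms were also compared over the ligands and signalling genes. In days 1–3, 2 of the 4 tested ligands differed, both lower with RANKL+CSRM617, where 13.4% of genes were higher and 15.1% lower. Tnf had 0 to 61.5 CPM with RANKL+CSRM617 (median 29.7) and 18.6 to 52.6 CPM with RANKL (median 37.8; -1.33, SE 0.33, adjusted p = 0.00221), and Tnfsf15 had 0 to 30.7 CPM (median 8.20) and 16.1 to 50.9 CPM (median 28.5; -1.54, SE 0.33, adjusted p = 0.000508). Both fold changes average the log2 differences of days 1, 2 and 3 and are not ratios of the medians. They rest on few counts, as Tnf had 123 UMIs and Tnfsf15 59 over all 14 RANKL+CSRM617 plates. Of the adaptors, 3 of 16 passed, all higher. Birc3, which encodes the E3 ligase cIAP2, had 125 to 208 CPM with RANKL+CSRM617 and 44.0 to 87.4 CPM with RANKL (1.41, SE 0.13, adjusted p = 1.04e-10), with no overlap. Of the death pathway, 5 of 14 were higher and 1 lower, with Casp6 at 0.98 (SE 0.13), Casp8, the initiator caspase below Fas, at 0.71 (SE 0.10) and Mlkl at 0.68 (SE 0.26). Casp8 had 252 to 425 CPM with RANKL+CSRM617, above the 158 to 236 CPM with RANKL. Of the p53 targets, 5 of 16 were higher and 1 lower, with Mdm2 at 0.68, Cdkn1a at 0.67 and Trp53inp1 at 0.58. Among other receptors Eda2r was higher (2.13, adjusted p = 0.0141) at levels of 0 to 21.1 CPM with RANKL+CSRM617 and 0 to 9.21 CPM with RANKL. Of the shedding genes Adam17, the protease that releases TNF receptors and TNF, was lower (-0.80, SE 0.18, adjusted p = 0.000685), Rhbdf1 was lower (-0.67) and Adam10 was higher (0.26).

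In days 4–6, 8.68% and 13.7% of genes were higher and lower with RANKL+CSRM617. Tnf had 0 to 25.6 CPM with RANKL+CSRM617 and 9.63 to 27.1 CPM with RANKL (-0.71, SE 0.46, adjusted p = 0.296). Tnfrsf19 had 0 to 32.0 CPM with RANKL+CSRM617 and 48.1 to 108 CPM with RANKL (-2.30, SE 0.35, adjusted p = 4.1e-06). Of the adaptors 4 of 16 passed, all higher, with Traf4 at 0.84, Birc3 at 0.78 and Tank at 0.53. Of the death pathway 2 were higher, Ripk3 (1.10), the kinase above Mlkl, and Cycs (0.64), and 2 lower, among them Bid (-1.35). Of the p53 targets 3 of 16 passed, all higher: Cdkn1a (1.14), Zmat3 (1.10) and Perp (0.86). The median over the 16 was -0.15, of the opposite sign to these 3 and close to the -0.12 of all genes. Adam17 was again lower (-0.86) and Adam10 higher (0.51).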

How the data were processed

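The deposited count tables hold whole UMI counts per gene and well, not normalized; the authors used kallisto, bustools and Seurat 3.1.5 with GRCm38, per the submitters' processing notes, without versions for the first 2 and with strand use not given in the sources used here. Deposited tables of natural log values were not used. Counts of wells holding at least 1000 UMIs were summed per plate; wells were sorted as single cells, so no doublet caller was run. Sums were tested with edgeR 4.0.16 (quasi-likelihood, TMM, filterByExpr, Benjamini-Hochberg at 0.05; R 4.3.3), with all days of an arm, or days 0 to 6 of both arms, in 1 fit; the SE is the log2 fold change over the square root of F. DESeq2 1.42.0, other filters, thinning, a replicate block and leaving out each plate were alternatives. On average, same-numbered plates did not deviate together. Cells were clustered per table (2000 variable genes, 30 components, 15 neighbours, Leiden resolution 1.0, leidenalg 0.10.2); a name needed 3 of its markers among 50 leading genes. Code was tested on simulated data. A UMI counts 1 molecule's 3′ end, so levels need no length scaling; floors and intervals cover counting error only. Named genes are the receptors, their ligands, the 3 closest genes by correlation and up to 3 called genes per list with the largest change; some of these are not reported here. The receptors and lists were chosen with earlier results of these data known. Gene positions are from GENCODE M21. Levels are CPM.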

Additional observations from a re-analysis of the deposited data

Results flagged for a closer look

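Among the death pathway and p53 target genes around these receptors, 5 changes from day 0 are given that differed between the arms by edgeR's interaction test. Each value is the log2 change with RANKL+CSRM617 minus that with RANKL. Over days 1–3, called differences were positive for 3 of 14 death pathway genes and negative for 0. For the 16 p53 targets, 1 was positive and 1 negative, where 4.1% of all genes passed. Over days 4–6, 1 of 14 was positive and 0 negative, and 1 of 16 positive and 1 negative, where 6.34% of all genes passed. The 5 given are all positive, and the negative calls are not among them. Over days 1–3, Mlkl differed by 2.67 (SE 0.59, adjusted p = 0.00575), with a log2 fold change from day 0 of 1.42 in the RANKL+CSRM617 arm (adjusted p = 0.0984) and -1.22 in the RANKL arm (adjusted p = 0.00282). Its day 0 plates had 8.24 and 9.81 CPM in the RANKL+CSRM617 arm, and 29.8, 32.9 and 78.7 CPM in the RANKL arm. The RANKL+CSRM617 levels stand for 3 and 6 UMIs, and the 78.7 CPM came from replicate 2, the plate of 26 cells. The difference of Mlkl thus rests on few day 0 counts. Cdkn1a differed by 1.19 over days 1–3 (SE 0.31, adjusted p = 0.0189) and by 1.67 over days 4–6 (SE 0.33, adjusted p = 0.00132). It had 179 to 1591 CPM over days 1–3 in RANKL+CSRM617 plates and 288 to 509 CPM in RANKL plates. Casp8 differed by 0.84 (SE 0.21, adjusted p = 0.0154) over days 1–3. The log2 fold change of Casp8 was 0.62 in the RANKL+CSRM617 arm (edgeR adjusted p = 0.044) and -0.19 in the RANKL arm (adjusted p = 0.247). Cycs differed by 0.97 over days 4–6 (SE 0.24, adjusted p = 0.00997). The arms were separate sets of plates that differed in 9.82% of genes on day 0.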

How the results depend on the processing

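DESeq2, DESeq2's size factors in edgeR and all deposited wells left the number of receptors called the same in each comparison of periods, of arms and of changes; the counts for single days were not repeated. Without the filter on low counts 5 passed for days 1–3 of RANKL against day 0, and 5 for days 4–9 against days 1–3. Thinning each cell to 1000 UMIs gave 4 of 7 for differences between RANKL days, 1 for days 1–3 (Tnfrsf1b) and 2 for days 4–9 (Fas and Tnfrsf21) against day 0, and 0 for the arms on day 0, days 1–3 and days 4–6; no receptor could be tested in the thinned RANKL+CSRM617 arm. Requiring 2000 UMIs per well gave 0 for the arms on day 0. Thinning reversed Tnfrsf1a over days 1–3 of RANKL to -0.18 and Fas between arms over days 1–3 to -0.017, neither called in the full counts. The cause was not tested. Leaving out 1 plate at a time gave 2 to 6 receptors for days 1–3 and 2 to 6 for days 4–9 of RANKL against day 0, 4 to 5 for days 4–9 against days 1–3, 6 to 7 between RANKL days, and 0 to 1 for days 1–3 of RANKL+CSRM617. Between arms it gave 0 to 1 on day 0, 0 to 2 over days 1–3 and 0 to 1 over days 4–6, and both interactions stayed at 0.

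Over all genes, thinning moved every count of calls by over 1.5 times. In the RANKL arm it gave 973 genes (2513 in the full counts) for days 1–3 and 1802 (4154) for days 4–9 against day 0, 2205 (4945) for days 4–9 against days 1–3 and 2670 (5856) between days. In the RANKL+CSRM617 arm it gave 323 (773), 289 (688) and 459 (1310) for days 1–3, days 4–6 and between days. Between arms it gave 359 (861), 1215 (2506) and 976 (1962), and for the interactions 76 (359) and 189 (556). Without RANKL+CSRM617 day 4 replicate 1, the arms differed in 1274 genes over days 4–6, and without RANKL day 0 replicate 3 the interaction of days 1–3 held 176. Without RANKL+CSRM617 day 0 replicate 1, days 1–3 and days 4–6 of that arm gave 307 and 282 genes, the arms on day 0 445 and the interactions 216 and 357. Without its replicate 2, days 1–3 gave 414, the arms on day 0 530 and the interactions 99 and 294.

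The replicate block called 4 receptors for days 1–3 and 5 for days 4–9 of RANKL, as without it, and changed no other count of receptors. On average, plates with the same number did not deviate together (mean r -0.003 in the RANKL arm and -0.016 in the RANKL+CSRM617 arm). Single pairs ran from -0.38 to 0.29 and from -0.31 to 0.29, so a link between some of them is not excluded. Sharing between plates other than by number was not tested. Depth limits the RANKL+CSRM617 arm most: in replicate 2 of day 4, its shallowest plate, 3 UMIs make 62.5 CPM.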
